A study of Mus musculus with 4 samples.

Results

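The genes described here are the 7 main enzymes and cofactors that write, maintain and remove DNA methylation: Dnmt1, Uhrf1, Dnmt3a, Dnmt3b, Tet1, Tet2 and Tet3. They were chosen by name and found by matching the Ensembl identifiers of the deposited table to mouse symbols. All 7 were among the 28765 genes of the table, and all 7 averaged at least 1 FPKM (fragments per kilobase of exon, scaled to library size), as did 12940 genes in all; only these were compared. Methylation in mammals sits mostly on the cytosine of CpG dinucleotides, and the methyl group comes from S-adenosylmethionine, a product of the folate and methionine cycles. Dnmt3a and Dnmt3b set new methylation in the embryo, Uhrf1 binds the hemimethylated CpG left by replication, and Dnmt1, recruited with it, copies the mark to the new strand. The Tet enzymes oxidise methylated cytosine, which leads to its removal by dilution or by base excision.

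The study measured RNA from brain and from spine of CD-1 mouse embryos at embryonic day 9.5 (E9.5), around neural tube closure. There were 4 groups of 1 library each: brain and spine of controls, and brain and spine of embryos with neural tube defects (NTD). The NTD model used parents on low-folate feed for over 8 weeks and, on E7.5, 1.5 mg/kg of the antifolate methotrexate (MTX) injected into the abdomen of the mother. The labels carry this text for the controls too and do not say whether control mothers had the feed or an injection. They name no genotype or allele, and do not give the number of embryos or litters behind a library. With 1 library per group, no single comparison has a replicate check. Each fold is a ratio of reads, scaled by library totals, with its 95% interval from the counts in parentheses; such intervals hold no biological spread.

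Most promoters of the family are rich in the CpG dinucleotides that its enzymes act on. RefSeq (GRCm38.p6) starts were matched for all 7 genes, with 12 windows of the 250 bases before a start. These windows held 2 to 51 CpG dinucleotides with a median of 19, and some windows of Dnmt3a overlap. Over all 32851 windows of the RefSeq table the median was 6 and the upper quartile 16. That background spans 27025 genes and was not limited to the compared genes. The motif TTTNNCGC, a loose form of the site bound by E2F factors of the cell cycle, was found on either strand in 3 of the 12 windows, both of Uhrf1 and 1 of Dnmt1, against 4.28% of all windows. CCAAT was found in 5 of the 12 (33.8% of all windows), and GGGCGG, the GC box, in 10 of the 12 (32.7%). A match is a description of letters and not a bound site. Printed 5′ to 3′ on the strand of the gene are the windows of Uhrf1, the highest member, the stretch of 30 bases that holds the Dnmt1 match, and windows of Dnmt3b and Dnmt3a, the members with opposite tissue differences. Capitals mark TTTNNCGC, CCAAT and GGGCGG on either strand. In the Dnmt1 stretch CCAAT overlaps its own reverse complement, and the match of TTTNNCGC occurs at a pair of overlapping positions.
Uhrf1 upstream start: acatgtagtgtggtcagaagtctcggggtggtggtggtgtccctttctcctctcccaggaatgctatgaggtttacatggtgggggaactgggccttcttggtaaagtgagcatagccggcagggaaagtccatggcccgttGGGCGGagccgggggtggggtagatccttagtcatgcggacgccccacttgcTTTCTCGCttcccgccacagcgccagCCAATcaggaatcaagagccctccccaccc
Uhrf1 downstream start: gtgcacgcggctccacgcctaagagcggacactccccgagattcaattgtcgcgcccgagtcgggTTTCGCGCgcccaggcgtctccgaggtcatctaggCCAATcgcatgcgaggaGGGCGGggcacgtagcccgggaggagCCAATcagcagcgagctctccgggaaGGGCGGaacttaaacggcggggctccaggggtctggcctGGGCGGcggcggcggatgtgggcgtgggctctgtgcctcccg
Dnmt1 match: ctcCCAATTGGtttccgcgcGCGCGAAAAA
Dnmt3b: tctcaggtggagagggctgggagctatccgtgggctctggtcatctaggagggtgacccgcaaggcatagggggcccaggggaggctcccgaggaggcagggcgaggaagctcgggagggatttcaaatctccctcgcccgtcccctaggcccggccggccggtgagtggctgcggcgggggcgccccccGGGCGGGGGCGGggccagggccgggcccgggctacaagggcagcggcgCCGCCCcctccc
Dnmt3a upstream start: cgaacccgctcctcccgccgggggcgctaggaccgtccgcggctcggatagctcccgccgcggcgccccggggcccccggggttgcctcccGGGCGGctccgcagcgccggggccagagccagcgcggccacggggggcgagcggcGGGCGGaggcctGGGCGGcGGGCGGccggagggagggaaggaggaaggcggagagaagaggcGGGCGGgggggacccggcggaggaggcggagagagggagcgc
Dnmt3a internal start: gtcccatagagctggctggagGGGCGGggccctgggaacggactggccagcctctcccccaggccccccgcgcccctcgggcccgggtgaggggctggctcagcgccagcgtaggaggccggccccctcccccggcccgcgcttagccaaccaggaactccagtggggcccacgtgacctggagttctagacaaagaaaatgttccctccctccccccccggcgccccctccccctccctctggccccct
The Uhrf1 windows are chr17:56303087-56303336 and chr17:56304063-56304312 on the plus strand. The Dnmt1 stretch is chr9:20952833-20952862 on the minus strand and lies within an annotated exon of another Dnmt1 transcript. The Dnmt3b window is chr2:153649199-153649448, and those of Dnmt3a are chr12:3806730-3806979 and chr12:3891494-3891743, all on the plus strand. Values here are per gene, so use of one start or another cannot be told apart.

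Library totals behind the FPKM ran from 16272101 to 16911677 reads. The tissue labels held against regional markers: all 8 genes of brain regions were higher in control brain than in control spine, with summed levels of 84.6 and 12.5 FPKM, and the 8 trunk Hox genes summed to 0.172 FPKM in the first and 135 FPKM in the second. The libraries also differed in tissue content within a label. NTD brain held 9.44 FPKM of the trunk Hox genes and 134 FPKM of 8 heart genes, against 31.5 FPKM of heart genes in control brain. In spine, 7 erythroid genes summed to 6287 FPKM in the control and 3309.7 FPKM in NTD, and 6 endoderm and yolk sac genes to 116 and 37.3 FPKM. The heart genes summed to 485 FPKM in control spine and 322 in NTD spine. The genes of brain regions summed to 12.5 and 6.02 FPKM in control and NTD spine, and to 84.6 and 74.2 FPKM in control and NTD brain. Summed levels of 10 early neuron genes were 166 FPKM in control brain and 106 in NTD brain, and 97.8 FPKM in control spine and 50.3 in NTD spine. In spine, 8 tail bud genes summed to 38.0 FPKM in the control and 59.2 FPKM in NTD. Of 8 neural progenitor genes, 8 were lower in NTD brain and 7 in NTD spine, beside 56.4% and 58.0% of all compared genes. They summed to 281 and 233 FPKM in control and NTD brain, and to 177 and 153 FPKM in control and NTD spine. In bulk tissue, fewer cells of a type and less RNA per cell cannot be told apart. What these differences contribute to the values below was not tested.

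The maintenance genes stood far above the others. Uhrf1, the reader of hemimethylated CpG (ENSMUSG00000001228, chromosome 17, 56303321 to 56323486), was at 148 and 138 FPKM in control and NTD brain and at 134 and 135 FPKM in control and NTD spine. Control brain was the high library, and the mean was above that of 97.5% of the compared genes. Dnmt1, the maintenance methyltransferase (ENSMUSG00000004099, chromosome 9, 20907209 to 20959888), was at 74.3 and 72.4 FPKM in control and NTD brain and at 71.9 and 77.6 FPKM in control and NTD spine. It was thus flat within 1.08-fold, and 5.99% of compared genes had a smaller ratio of their highest to their lowest library. Reads behind these values ranged from 8629 to 10669 per gene and library.

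The de novo methyltransferases were several-fold lower and varied more between libraries. Dnmt3b (ENSMUSG00000027478, chromosome 2, 153649450 to 153687730) was at 16.6 and 18.3 FPKM in control and NTD brain and at 13.96 and 15.5 FPKM in control and NTD spine. Both brain libraries were above both spine libraries, and within each tissue the NTD library was the higher. Dnmt3a (ENSMUSG00000020661, chromosome 12, 3806007 to 3914443) had the opposite order on both counts, at 10.9 and 9.92 FPKM in control and NTD brain and at 14.7 and 13.7 FPKM in the matching spine libraries. FPKM divides by the union of the exons of all transcripts, which came to 16642 bases over 18 transcripts for Dnmt3a and 5106 bases over 12 for Dnmt3b, so their levels depend on that length while ratios between libraries do not.

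Among the dioxygenases Tet3 was by far the highest. Tet3 (ENSMUSG00000034832, chromosome 6, 83362373 to 83459084) was at 10.4 and 9.41 FPKM in control and NTD brain, with 9.93 and 10.3 FPKM in control and NTD spine. It made up between 75.7% and 79.7% of the summed FPKM of the 3 Tet genes in each library. Tet1 (ENSMUSG00000047146, chromosome 10, 62804570 to 62908996) was at 1.51 and 1.70 FPKM in control and NTD brain, and at 1.82 and 1.73 FPKM in control and NTD spine, lowest in control brain. Tet2 (ENSMUSG00000040943, chromosome 3, 133463679 to 133545139) was at 1.15 and 0.914 FPKM in the brain libraries and 1.36 and 1.55 FPKM in the spine libraries, control first, so brain was below spine in both conditions. Tet1 is best known from pluripotent and germ cells, and 10.9% of compared genes had a lower mean. For Tet2, which differs from its relatives in lacking a CXXC domain of its own, 4.36% had a lower mean, and its 254 to 434 reads per library gave the widest intervals.

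**Figure D1:**
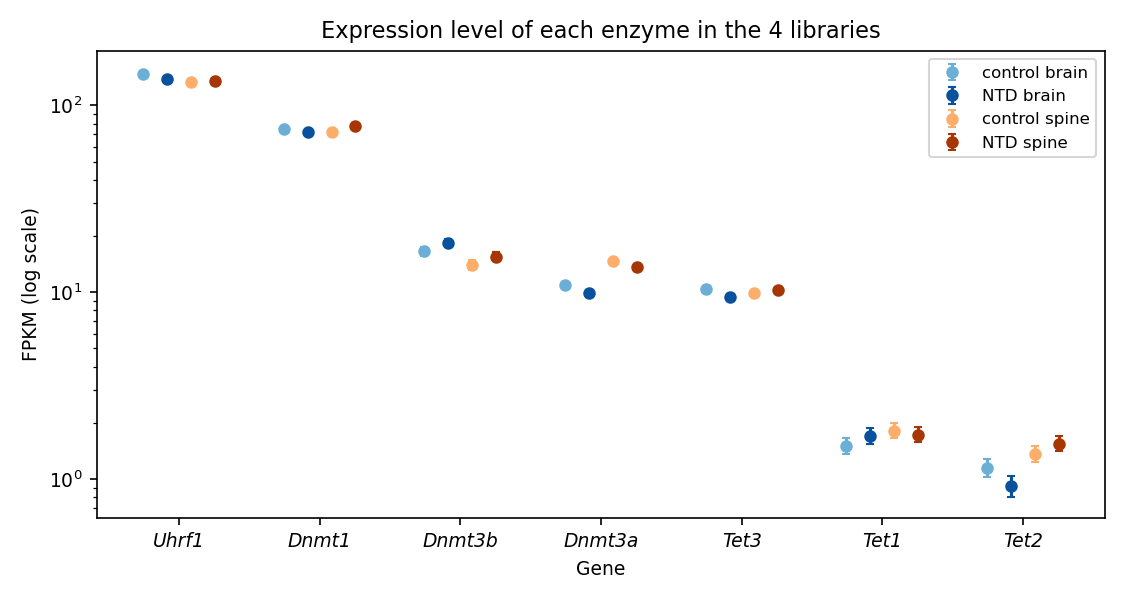
FPKM of each enzyme (log axis) in the control and NTD libraries of brain and spine, 1 library each, with 95% Poisson counting intervals. Uhrf1 and Dnmt1 stand highest in every library, Tet1 and Tet2 are under 2 FPKM, and Dnmt3b and Dnmt3a change places between brain and control spine.

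The order of levels was the same in both brain libraries and in NTD spine: Uhrf1, Dnmt1, Dnmt3b, Dnmt3a, Tet3, Tet1 and Tet2. In control spine Dnmt3a stood above Dnmt3b, but their counting intervals overlapped (14.2 to 15.1 and 13.2 to 14.8 FPKM). Those of Dnmt3a and Tet3 also overlapped in both brain libraries, and those of Tet1 and Tet2 in NTD spine. All other neighbours in the order were separated by more than their counting intervals in each library.

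None of the 7 enzymes differed by 1.2-fold between NTD and control in brain on the scale of FPKM + 1, where 21.0% of all compared genes did, 7.25% higher and 13.8% lower. Of those called genes 34.5% were higher, or 45.1% when each library was rescaled by its median ratio and 26.5% after rescaling to the same sum. In brain, 2 members were higher and 5 lower, and the median log2 ratio of (FPKM + 1) was -0.10, beside -0.03 over all genes. Uhrf1 was 1.07-fold lower in NTD brain (1.04 to 1.10) and Dnmt1 1.03-fold lower (0.997 to 1.06). Both small differences took the other sign after adjustment for GC content and length (log2 of 0.03 and 0.10), and that of Dnmt1 also after median-ratio rescaling. Dnmt3b was 1.11-fold higher (1.03 to 1.19), while Dnmt3a was 1.10-fold lower (1.05 to 1.16). Tet3 was 1.11-fold lower (1.05 to 1.17) and Tet2 1.25-fold lower (1.06 to 1.48), from 327 to 254 reads. Tet1 was 1.13-fold higher (0.982 to 1.30), an interval that includes equality. Counting intervals excluded equality for 5 of the 7, beside 41.8% of the compared genes with whole recovered reads. Intervals narrow with the reads of a gene, and all but Tet1 and Tet2 had at least 1160 reads in every library.

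In spine, too, no member reached 1.2-fold, where 21.6% of compared genes did, 6.38% higher and 15.2% lower. Of those called genes 29.5% were higher, or 43.7% after rescaling to the same sum and 42.5% by the median ratio. Here 5 members were higher and 2 lower, with a median log2 ratio of 0.05 beside -0.04 over all genes. Dnmt1 was 1.08-fold higher in NTD spine (1.05 to 1.11), and Dnmt3b was 1.11-fold higher (1.02 to 1.2005). Dnmt3a was 1.07-fold lower (1.03 to 1.12). The intervals of the other 4 included equality: Uhrf1 at 1.01-fold (0.981 to 1.04), Tet3 at 1.04-fold (0.985 to 1.09), Tet2 at 1.14-fold (0.988 to 1.31) and Tet1 at 1.05-fold lower (0.922 to 1.202). Counting intervals excluded equality for 3 of the 7, beside 43.8% of compared genes.

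**Figure D2:**
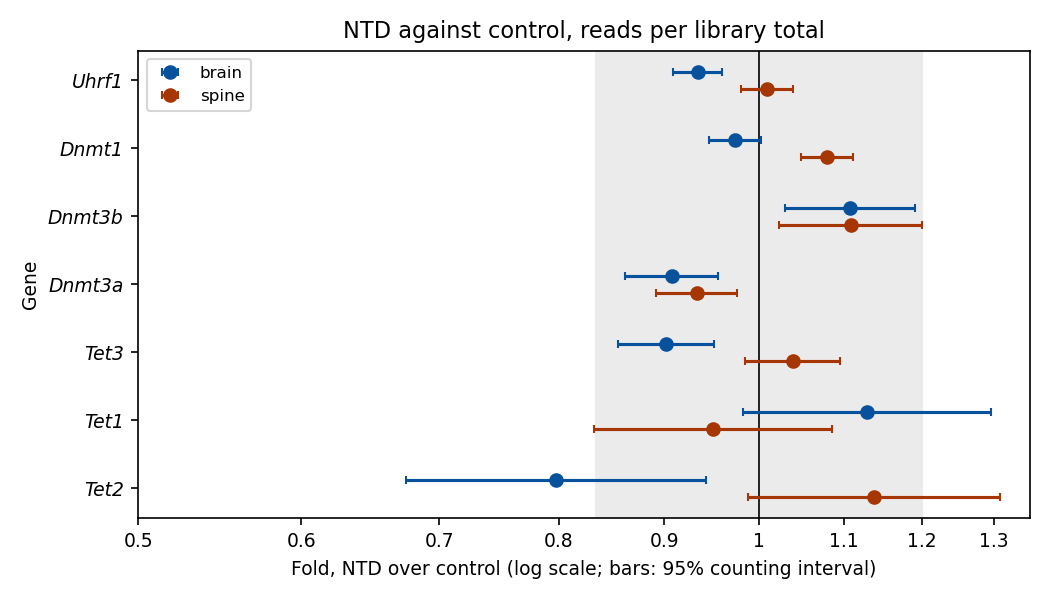
Fold of reads per library total, NTD over control, in brain (blue) and spine (brown) for each enzyme, with 95% counting intervals; the axis is logarithmic and the grey band spans 1.2-fold either way. Dnmt3b lies above 1 and Dnmt3a below 1 in both tissues, and the other 5 lie on opposite sides of 1.

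Only Dnmt3a and Dnmt3b of the 7 had the same direction in both tissues, in the data as deposited, beside 67.9% of all compared genes. By median ratio Dnmt1 joined them, making 3 of 7, and with adjustment for GC content and length Dnmt1 and Uhrf1 did, making 4 of 7. The log2 ratio of Dnmt3b was 0.14 in brain and 0.14 in spine, and that of Dnmt3a was -0.13 and -0.09. In the other 5, the difference between the tissues in log2 ratio, spine minus brain, ran from -0.15 for Tet1 to 0.27 for Tet2. The median absolute difference was 0.15 over the 7 members and 0.12 over all genes. A limma fit of log2(FPKM + 1) over all compared genes, with tissue as block, used both tissues as the replicates of the NTD difference and had 1 residual degree of freedom. Its SEs and p-values also draw on the spread of other genes at like levels, with 3.41 prior degrees of freedom. By this fit none of the 7 was called at an adjusted p under 0.05, and none had an unadjusted p under 0.05, beside 0.147% and 21.9% of all genes. Under alternatives of this limma fit unadjusted p-values under 0.05 did occur. Dnmt3b had 0.0131 with adjustment for GC content and length, 0.0280 by median ratio and 0.0441 without a filter, and Dnmt1 had 0.0304 with that adjustment. Of all genes 17.6% had such a limma p with that adjustment, 21.3% by median ratio and 11.2% without a filter. No adjusted p of a member was under 0.05 in any of these fits. Without the trend in the variance 0 of all genes were called, with 2423 at an unadjusted p under 0.05. Dnmt3b had a difference of 0.14 (SE 0.06, higher in 2 of 2 tissues) with a limma adjusted p of 0.250, and Dnmt3a one of -0.11 (SE 0.06, lower in 2 of 2) with a limma adjusted p of 0.352. Adjusted p-values of the other 5 in limma were between 0.715 and 0.929. A p that misses the threshold does not show that levels were equal.

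Ratios of both tissues varied with GC content and exon length, whose part in the results was not tested beyond the following adjustment. Genes in the same class of GC content and exon length as Dnmt1 had a median log2 ratio of -0.14 in brain and -0.12 in spine, and those in the class of Dnmt3b -0.08 and -0.06. Relative to these, Dnmt3b was higher by 0.22 in brain and 0.20 in spine, and Dnmt1 by 0.10 and 0.23. Dnmt3a was at -0.02 and -0.07 relative to its like genes, so little of its NTD difference in brain remained. The lower Tet3 of NTD brain likewise stood at -0.03 relative to genes of like GC content and length, and Tet2 at -0.13.

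Between the tissues the de novo enzymes differed in opposite directions, Dnmt3a lower and Dnmt3b higher in brain. Between the controls Dnmt3a was 1.34-fold lower in brain than in spine (1.28 to 1.41), and it was 1.38-fold lower in NTD brain than in NTD spine (1.31 to 1.45). On the scale of FPKM + 1 it alone of the 7 passed 1.2-fold between the control tissues, where 22.9% of compared genes did and 13.0% on the lower side. At 1.5-fold and at 2-fold it was not called, where 8.18% and 3.36% of compared genes were. Counting intervals excluded equality for 6 of the 7 between the controls, beside 39.1% of compared genes, and for 5 of the 7 in the NTD libraries, beside 43.5%. In the limma fit with condition as block, Dnmt3a fell in brain against spine by 0.41 on the log2 scale (SE 0.06, lower in 2 of 2 conditions, adjusted p = 0.0335), where 6.67% of all genes were called and 4.09% as lower. Over the alternatives that limma adjusted p ran from 0.00625 to 0.209, and it was 0.0714 without the trend in the variance and 0.209 without the filter on low values, so the call rests on those choices. Dnmt3b was higher in brain, by 1.19-fold in controls (1.10 to 1.28) and by 1.18-fold in NTD (1.10 to 1.28), with a limma difference of 0.23 (SE 0.06) and adjusted p of 0.104.

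The other members differed less, or not alike, between the tissues. Uhrf1 was 1.11-fold higher in control brain (1.07 to 1.14) and 1.02-fold in NTD brain (0.994 to 1.05). Dnmt1 was 1.03-fold higher in control brain (1.004 to 1.06) but 1.07-fold lower in NTD brain (1.04 to 1.10). Tet2 was 1.19-fold lower in control brain (1.02 to 1.38) and 1.69-fold lower in NTD brain (1.45 to 1.99), the largest fold among the 7, at 0.914 against 1.55 FPKM. In the NTD libraries Dnmt3a and Tet2 passed 1.2-fold on FPKM + 1, both lower in brain, beside 24.8% of compared genes in either direction and 13.4% on the lower side. Tet1 was 1.21-fold lower in control brain (1.05 to 1.38) and 1.01-fold lower in NTD brain (0.887 to 1.16). Tet3 was 1.05-fold higher in control brain (0.997 to 1.11) and 1.10-fold lower in NTD brain (1.04 to 1.16). In the limma fit the tissue differences of Uhrf1, Dnmt1 and the Tet genes had adjusted p-values between 0.345 and 0.867. The control tissues also differed in trunk tissue, as the heart genes show: 31.5 FPKM in brain and 485 in spine. Endothelial genes, 6 in number, summed to 50.8 and 61.9 FPKM there, and the part of either in the Dnmt3a difference was not tested.

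**Figure D3:**
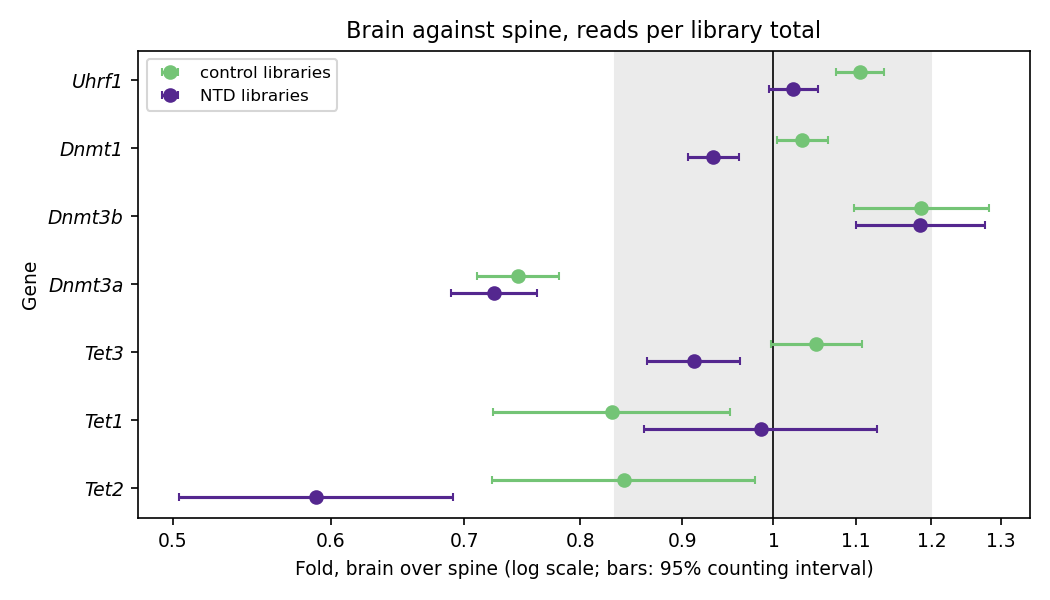
Fold of reads per library total, brain over spine, in the control libraries (green) and the NTD libraries (purple), with 95% counting intervals on a logarithmic axis; the grey band spans 1.2-fold either way. Dnmt3a lies below the band and Dnmt3b above 1 in both, and Tet2 is lowest in the NTD libraries.

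A ratio taken within a library does not depend on how libraries are scaled. The ratio of Dnmt3b to Dnmt3a in FPKM was 1.51 (1.42 to 1.61) and 1.85 (1.74 to 1.97) in control and NTD brain, and 0.951 (0.890 to 1.02) and 1.13 (1.06 to 1.203) in control and NTD spine. No interval overlapped another, and each tissue had the higher ratio in NTD. The ratio was 1.22-fold higher with NTD in brain (1.12 to 1.33) and 1.19-fold higher with NTD in spine (1.08 to 1.30). Between the tissues it was 1.59-fold higher in brain in the controls (1.45 to 1.75) and 1.64-fold in NTD (1.50 to 1.79). This ratio was chosen after the values of both genes were seen, is a description of 4 libraries, and has no test. The ratio of Uhrf1 to Dnmt1 was 1.99 and 1.91 in control and NTD brain and 1.86 and 1.74 in control and NTD spine. Relative to control it was thus 0.959-fold with NTD in brain (0.922 to 0.999) and 0.936-fold in spine (0.898 to 0.975). Tet1 to Tet2 was 1.32 and 1.86 in control and NTD brain and 1.33 and 1.11 in control and NTD spine, with NTD brain apart from the other 3.

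**Figure D4:**
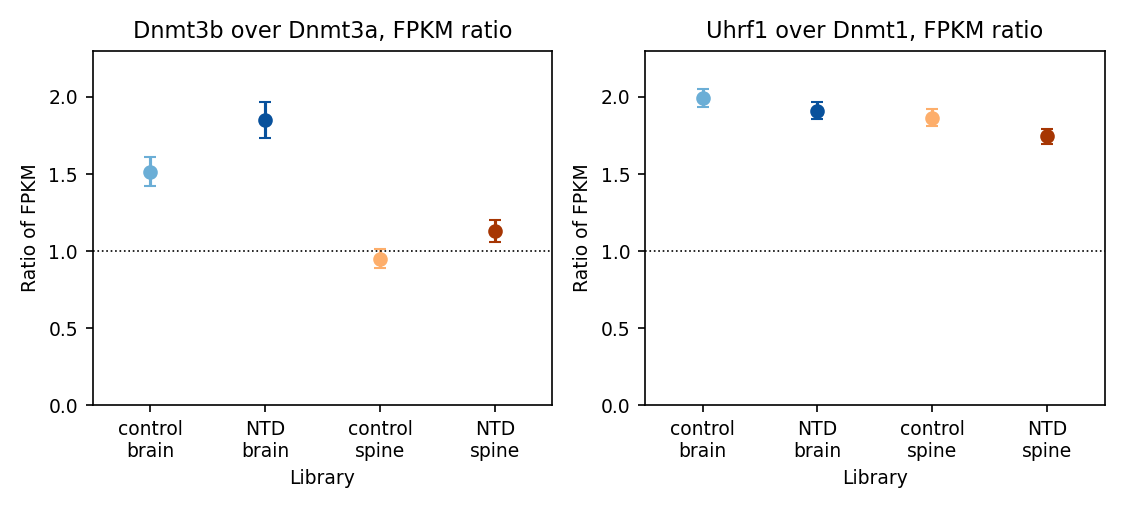
Ratio of FPKM within each library, Dnmt3b over Dnmt3a (left) and Uhrf1 over Dnmt1 (right), with 95% counting intervals and a dotted line at 1. Dnmt3b over Dnmt3a is 1.51 and 1.85 in the brain libraries and 0.951 and 1.13 in the spine libraries, and Uhrf1 over Dnmt1 lies between 1.74 and 1.99.

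Genes that work beside the enzymes were taken from lists, with calls at 1.2-fold on FPKM + 1. Of 12 partners of maintenance methylation 11 were compared. Of these, 7 were higher in NTD brain and 8 in NTD spine, beside 43.6% and 41.9% of all compared genes. Their median log2 ratios were 0.05 and 0.09. In spine 2 of 11 were called, both higher, where 6.38% of all compared genes were called higher and 21.6% in either direction. These calls were Pcna, the replication clamp (1.23-fold higher, 1.19 to 1.28), and Hells, a remodelling ATPase needed for methylation (1.22-fold higher, 1.17 to 1.29). Hells was named after its values were seen. In brain 0 of 11 passed 1.2-fold, where 21.0% of all compared genes did. There Pcna was at 1.15-fold (1.11 to 1.18) and Hells at 1.13-fold (1.08 to 1.18). Cdca7 and Lig1, with Pcna the most abundant partners, were closer to equality. Cdca7, which recruits Hells, was at 1.03-fold in brain and 1.04-fold in spine, and the ligase gene Lig1 at 0.978-fold and 0.994-fold. On FPKM + 1, Hdac1 was 1.17-fold higher in NTD brain and 1.06-fold in spine, and Hdac2 1.13-fold and 1.10-fold. Of the 4 partners lower in brain and 3 in spine, Ehmt2 was the furthest from equality, at 1.13-fold and 1.09-fold lower. Most of the listed S phase genes share the cell cycle timing of Dnmt1 and Uhrf1. Of the 15, 13 were higher in NTD brain (median 0.07) and 12 in NTD spine (median 0.14), beside 43.6% and 41.9% of all compared genes. The 2 lower in brain were Mki67 and Top2a, which are not limited to S phase (log2 ratios of -0.13 and -0.01). In spine Mki67 was lower (-0.11) and Top2a higher (0.14). At 1.2-fold 0 of the 15 were called in brain and 2 in spine, where 6.38% of all compared genes were called higher. The spine calls of this list were Mcm4, a helicase subunit, at 1.32-fold (1.27 to 1.37), and Ccne2, a cyclin, at 1.34-fold (1.21 to 1.49). Rrm2, a subunit of ribonucleotide reductase and the most abundant of that list, was 1.07-fold higher in NTD brain (1.04 to 1.10), with the helicase subunits Mcm5 at 1.02-fold and Mcm7 at 1.10-fold.

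Of 19 genes linked to demethylation and base excision, not all of them downstream of the Tet enzymes, 18 were compared. In NTD brain 4 were higher and 14 lower (median -0.08), and in NTD spine 9 were higher and 9 lower (median -0.02), beside 56.4% and 58.0% of all compared genes lower. Calls numbered 3 of 18 in brain and 4 of 18 in spine, near the 21.0% and 21.6% of all compared genes. Gadd45a, a damage-induced gene linked to demethylation, was called higher in both tissues, at 1.28-fold in brain (1.01 to 1.64) and 1.42-fold in spine (1.13 to 1.78). Its relatives Gadd45b and Gadd45g were called lower in both: Gadd45g was 1.31-fold lower in brain (1.13 to 1.53) and 1.35-fold lower in spine (1.17 to 1.56). Gadd45b had 54 reads in control brain and 28 in NTD brain, 1.88-fold lower (1.17 to 3.08), and its interval in spine included equality (1.43-fold lower, 0.907 to 2.27). The fourth gene called in spine was Cxxc5, a CXXC zinc finger protein, 1.25-fold lower (1.15 to 1.35). Tdg, the glycosylase that removes oxidised methylcytosine, stood at 9.87 and 9.07 FPKM in control and NTD brain and 9.09 and 10.6 FPKM in control and NTD spine. Parp1, the most abundant of the list, was at 0.972-fold in brain and 1.06-fold in spine, and the dehydrogenases Idh1 and Idh2, which make the Tet cosubstrate 2-oxoglutarate, at 1.02-fold and 0.968-fold in brain.

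The list of methylated CpG readers and proteins of their complexes was lower in all 7 compared members in NTD brain (median -0.14) and in 5 of 7 in NTD spine (median -0.07), beside 56.4% and 58.0% of all compared genes. The genes called were Mbd2 and Mbd3 in both tissues, 2 of 7 and both lower. Of all compared genes 13.8% were called lower in brain and 15.2% in spine. These relatives sit in alternative forms of the NuRD repressor complex, and mammalian Mbd3, unlike Mbd2, does not bind methylated CpG selectively. Mbd3 was 1.22-fold lower with NTD in brain (1.16 to 1.27) and 1.24-fold lower in spine (1.19 to 1.29), and Mbd2 was 1.26-fold (1.12 to 1.42) and 1.40-fold lower (1.24 to 1.58). Trim28, a corepressor that does not itself bind methylated CpG and that holds methylation at imprinted loci and repeats, was 1.12-fold lower in brain (1.09 to 1.14) and 1.02-fold higher in spine (0.997 to 1.04). Genes of methyl donor supply were split, with 5 of 9 higher in brain (median 0.03) and 3 of 9 in spine (median -0.08). Of all compared genes 43.6% were higher in brain and 41.9% in spine. Ahcy, which clears S-adenosylhomocysteine, an inhibitor of the methyltransferases, was 1.08-fold higher in brain with NTD (1.03 to 1.13) and 1.10-fold lower in spine with NTD (1.05 to 1.16). Its neighbour in the cycle Mat2b, a regulatory subunit of the enzyme that makes S-adenosylmethionine, was 1.21-fold higher in NTD brain by reads (1.13 to 1.30), and just under 1.2-fold on FPKM + 1. Gnmt was the only gene of that list called in brain, where 21.0% of all compared genes were called. It had 20 reads in NTD against 13 in control, and its interval included equality (1.58-fold, 0.748 to 3.46).

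**Figure D5:**
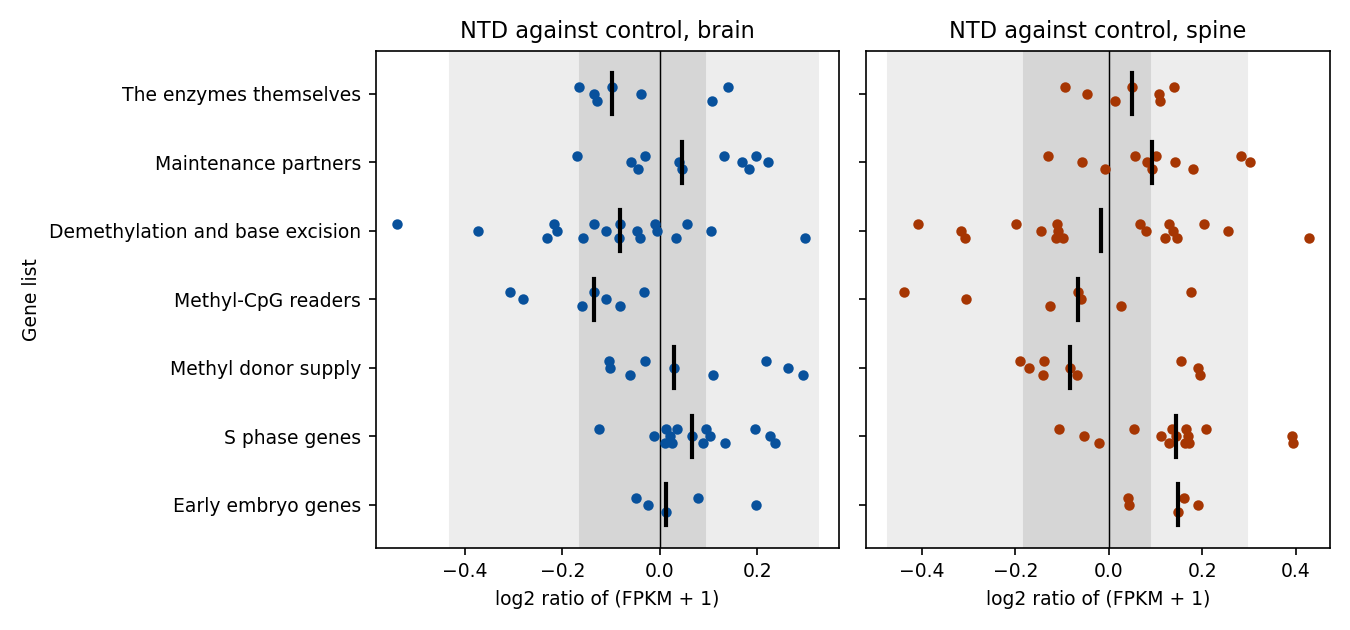
Log2 ratio of (FPKM + 1), NTD against control, of each compared gene of 7 lists in brain (left) and spine (right); black ticks are list medians, and grey bands hold the central 50% and 90% of all compared genes. The 7 enzymes lie between -0.17 and 0.14 in brain and between -0.09 and 0.14 in spine.

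Relatives of the 7 were sparse apart from Uhrf2. Dnmt3l, the cofactor without catalytic activity that acts in germ cells, was at most 0.0989 FPKM in any library. Uhrf2 was 1.10-fold higher with NTD in brain (1.05 to 1.16) and 1.21-fold higher in spine (1.15 to 1.28), at 18.0 FPKM in control spine and 21.8 in NTD spine. Trdmt1, which methylates transfer RNA, was 1.17-fold lower in brain (0.929 to 1.48) and 1.43-fold lower in spine (1.13 to 1.81). Germline genes that promoter methylation is known to keep silent in somatic cells were also listed. None of the 17 present in the table reached a mean of 1 FPKM, and they summed to 1.70 and 1.66 FPKM in control and NTD brain and 3.52 and 2.52 FPKM in control and NTD spine. The largest value among them was that of Rhox5, at 1.47 FPKM (18 reads) in control spine against 0.160 FPKM (2 reads) in NTD spine. Of 9 listed genes of early embryonic cells, where Dnmt3b is abundant, 5 were compared. In NTD spine 5 of the 5 were higher (median 0.15), beside 41.9% of all compared genes. In NTD brain 3 of the 5 were (median 0.01), beside 43.6%. The rest averaged under 1 FPKM, with Pou5f1, Utf1 and Dppa4 lower in NTD spine and Zfp42 higher. None of the 5 passed 1.2-fold in either tissue. Tail bud genes were higher in 6 of 8 in NTD spine, with 5 called, beside 6.38% of all compared genes called higher. Their summed levels were 38.0 FPKM in control and 59.2 FPKM in NTD spine. In NTD brain 6 of 8 were also higher, with 5 called higher and 1 lower, beside 7.25% and 13.8% of all compared genes. Brain sums were 17.5 FPKM in control and 16.9 FPKM in NTD. Most of them came from Wnt3a (6.68 and 4.05) and Fgf8 (9.68 and 9.35), both lower in NTD brain. Unlike the rest of the list, these genes were also higher in control brain than in control spine. Each of the other 6 was at most 1.102 FPKM in either brain library. The part of tail bud tissue in the values of the early embryonic genes was not tested. Lin28a, an RNA-binding regulator of developmental timing, was 1.14-fold higher in NTD spine (1.10 to 1.19), and the abundant Hmga2 and Trim71 were 1.11-fold and 1.12-fold higher.

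The genes nearest in pattern to the 3 most variable members were found by the distance of their centred log2(FPKM + 1) over the 4 libraries, among the 7228 protein-coding genes that averaged 5 FPKM or more. Nearest to Dnmt3a were Vasn (distance 0.02), at 6.71 and 6.16 FPKM in control and NTD brain and 9.22 and 8.53 FPKM in control and NTD spine, and Col18a1 (0.04). For Dnmt3b they were Nap1l1 (0.01), at 256 and 283 FPKM in the brain libraries and 219 and 240.4 FPKM in the spine libraries, control first, and Sumo2 (0.02). Tet2 was followed by Atrnl1 and Larp4b, each at a distance of 0.04. With 4 libraries such likeness is common: 164 genes lay within 0.1 of Dnmt3b, 33 within 0.1 of Dnmt3a and 71 within 0.1 of Tet2. Overlapping genes took little room in the members: exons shared with the antisense gene Dnmt3aos covered 133 bases of Dnmt3a, and those shared with Gm42567 covered 43 bases of Tet2. The sources used here do not give the strand setting, so reads of these stretches cannot be told apart.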

How the data were processed

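RNA-seq of 4 libraries, 1 per group by the sample titles, was deposited by the authors as a table of FPKM per gene. The aligner HISAT2 2.0.1 and the build mm10 are named per the submitters' processing notes. How reads were counted, on which annotation and with which filters is not given in the sources used. Identifiers were matched to GENCODE M21 (28698 of 28765). FPKM multiplied by the length of the merged exons moved in steps of 1 read, from which library totals and reads were recovered, whole within 0.01 reads for 98.6% of matched genes and for all 7 members.

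Log2 ratios used a pseudocount of 1 FPKM and genes averaging 1 FPKM or more. Folds compare recovered reads scaled by library totals, with exact conditional binomial intervals at 95%; levels have exact Poisson intervals. Single comparisons have no test. limma 3.58.1 (R 4.3.3, eBayes with trend, Benjamini-Hochberg over 12940 genes) fitted tissue and condition together. From the gene itself, the limma p-values rest only on the disagreement of 2 tissue pairs, or of 2 conditions for the tissue term. eBayes moves this spread towards that of other genes at like levels, with 3.41 prior degrees of freedom beside 1 residual. Neither is a spread between replicates, and labels do not say that embryos were separate. The tissue term, the NTD brain against NTD spine comparison and rescaling to the same sum in limma were added after seeing the data. The fit was tested on simulated data with 200 changed genes among 12932: of 247 calls 70 were unchanged genes, and of 147 calls with at least 250 reads 0 were. In that setting p-values were too small for genes with few reads. The simulated libraries had no tissue difference, and their tissues disagreed on the NTD difference only by random noise. The simulation therefore does not show how sound the p-values of the real libraries are, at few reads or many. GC content and length were adjusted in 10 by 10 cells of like genes. Alternatives were other pseudocounts, filters, scalings, thresholds, protein-coding genes only and no variance trend.

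The members and gene lists were chosen with earlier results of these data known. The rule for naming list genes took those at least 1.5-fold different in an NTD comparison, otherwise the 3 most abundant. Not all genes that met it are named. Genes outside that rule are said to be, or were, named after their values were seen (the Gadd45 genes, Cxxc5, Tdg, Mbd2, Mcm4, Ccne2, Mki67, Top2a, Gnmt, Dnmt3l, Hells, Hdac1, Hdac2, Ehmt2, Rhox5, Fgf8, Pou5f1, Utf1, Dppa4 and Zfp42). Named patterns are the 2 nearest genes of the 3 most variable members. Calculations used Python 3.11.15, pandas 2.3.3 and scipy 1.17.1.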

Additional observations from a re-analysis of the deposited data

Results flagged for a closer look

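In 5 of the 7 enzymes the NTD library was above the control in 1 tissue and below it in the other. The differences of the log2 ratios, spine minus brain, were 0.15 for Dnmt1, 0.11 for Uhrf1, -0.15 for Tet1, 0.27 for Tet2 and 0.19 for Tet3. Each rests on 1 library per tissue and condition, so the difference was not tested. Each of the 5 had a counting interval that included equality in at least 1 of the tissues. The intervals of the brain and spine folds overlapped for Tet1 but not for Dnmt1, Uhrf1, Tet2 and Tet3. Such intervals hold no biological spread.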

How the results depend on the processing

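No paired analysis by replicate number was possible because the groups share only the number 1; the limma fits pair libraries by tissue or by condition instead. No member was called in NTD spine under any alternative. In NTD brain 1 member, Tet2, passed 1.2-fold with a pseudocount of 0.1 (0 as reported), and between the control tissues the count of 1 was 0 at 1.5-fold and at 2-fold. Members with opposite directions numbered 3 with a filter of 5 FPKM, which leaves out Tet1 and Tet2, 3 with adjustment for GC content and length and 4 by median ratio (5 as reported). Uhrf1 in brain turned to 0.0272 with the GC adjustment. In the limma fit of NTD, the 19 genes called were 32 with a pseudocount of 0.1, 83 with 5, 0 without a filter (3232 at an unadjusted p under 0.05), 119 with a filter of 5 FPKM, 55 by median ratio, 528 on the same sum, 31 with the GC adjustment and 0 without trend (2423 unadjusted), and no member was called under any of these. There Uhrf1 turned to 0.00398 by median ratio and, with the GC adjustment, Uhrf1 to 0.0798, Tet1 to -0.0159 and Tet3 to 0.0223. In the tissue term, 1 member was called, and 0 without a filter or without trend; all genes called were 863, or 0 without a filter (3722 unadjusted) and 1525 on the same sum. With the GC adjustment Dnmt1 turned to 0.0410 and Tet3 to 0.0540. Leaving out a tissue pair leaves no residual and gives the values of the other tissue. Depth limits Tet1 and Tet2 most. The cause of these changes was not tested.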
